A study of Homo sapiens with 6 samples.

Results

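Cells in which ZNF507 had been targeted with CRISPR/Cas9 (sgZNF507) were compared with cells given the empty vector (EV), across all expressed genes and by pathway and protein complex. Of the 6 RNA-seq libraries of the series, these are 4, namely 2 of sgZNF507 and 2 of EV, chosen by the treatment named in the sample labels. The remaining 2 libraries, from cells targeted at ZNF146 (sgZNF146), served as a further set of reference values. All groups were HEK293, an established line derived from human embryonic kidney, transiently transfected with PX459, a plasmid that carries Cas9 and puromycin resistance. The EV plasmid carried no guide, while the sgZNF507 cells received 4 guides against the same gene as a mixture of plasmids. Every group was held in puromycin for 36 h from the day after transfection and harvested 14 days after it. The cells were a bulk population without sorting or cloning, so edited and unedited copies of ZNF507 can both be present, and a change in fewer cells cannot be told apart from a smaller change in every cell. Replicates are described as biological duplicates, and the p-values below measure the spread between such libraries only.

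ZNF507 encodes a C2H2 zinc finger protein with DNA-binding domains. Many of the genes that moved serve the lysosome, the acidic organelle in which hydrolases break down macromolecules. Its soluble hydrolases are tagged with mannose 6-phosphate in the Golgi and carried to endosomes by receptors, a proton pump (the V-ATPase) acidifies the organelle, and tethering complexes such as HOPS let it fuse with endosomes and autophagosomes. Transcription factors of the MiT/TFE family bind an E-box (CACGTG) that is found in the promoters of many lysosomal genes.

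The sites that were targeted are shown because they define the disruption. The capitals mark the 3 bases of the protospacer adjacent motif that Cas9 needs, and each site lies in exon 3 of 7 of ZNF507, within the coding sequence, in the build GRCh37. The sample labels list the other strand of each site, in part shortened, and the strand shown here was chosen after the neighbouring bases were seen, since it is the one with the motif next to it.

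target 1, chr19:32844237-32844256, plus strand: ggaggaacttgaagcccacgTGG
target 2, chr19:32845605-32845624, plus strand: aagtttgtccggaaacaatgTGG
target 3, chr19:32844219-32844238, plus strand: tattacatctagaagccaggAGG
target 4, chr19:32845261-32845280, plus strand: gagttgacaagagccaacctGGG

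Target 3 and target 1 would be cut at codons 167 and 173, and target 4 and target 2 further along at codons 514 and 629. The deposited counts are per gene and hold no reads of the edited alleles. The authors reported frequent insertions and deletions at the target sites in their reads, and a western blot with essentially no detectable ZNF507 protein. ZNF507 itself had 71.99 and 75.49 CPM (normalised counts scaled to a common library size) in EV, 71.3 and 73.2 CPM in sgZNF146, and 47.2 and 48.7 CPM in sgZNF507. Both sgZNF507 libraries thus lay below the other 4, and the log2 fold change against EV was -0.62 (SE 0.07, edgeR adjusted p = 0.00195). Of the other members of its family of large zinc finger proteins, ZNF827 differed by 0.12 and ZNF462 by -0.01 on the log2 scale, with edgeR adjusted p-values of 1.00.

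The libraries held 22724439 to 28524025 counts, and 22010 of the 57773 annotated genes had enough counts to be tested. All 13 HEK293 markers with a row in the table were over 1 CPM in every library, and their summed level was 1690 to 1805 CPM in EV and 1661 to 1679 CPM in sgZNF507. Of 20 markers of blood, skin, glia, fibroblasts and other cells, 9 were under 1 CPM in every library (KRT5 was at 0) and 8 were over it, with summed levels of 93.8 to 96.3 CPM in EV and 98.1 to 108 CPM in sgZNF507. Within a group the replicates varied beyond counting error (chi-square divided by its degrees of freedom, 7.04 to 10.7). The median log2 fold change over all genes tested was -0.00.

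Genes of the endolysosomal system made up the largest share of what changed. The lists were chosen with earlier results of these data known, so this share is a description and not a test. In sgZNF507 against EV, 40 genes (0.182% of those tested) had an edgeR adjusted p under 0.05, of which 25 were higher (0.114%) and 15 lower (0.0682%). Of these, 22 belonged to the 382 tested genes of 16 endolysosomal gene lists, with 18 higher and 4 lower. A further 12 belonged to other lists (5 higher and 7 lower), and 6 to no list (2 higher and 4 lower), among them the 5 lncRNAs. Of the 40, 26 exceeded 1.5-fold and 10 exceeded 2-fold (3 higher and 7 lower). With a term for the replicate number added (the replicate block), 121 genes were called (54 higher and 67 lower), the 40 among them, and 30 of the 121 were endolysosomal (23 higher and 7 lower). In all 40, both sgZNF507 libraries lay outside the range of the 4 EV and sgZNF146 libraries. The genes were picked by a small p in a fit of these libraries, which favours such separation, so it is not further support. Of all genes tested, 29.3% had both sgZNF507 libraries wholly above or wholly below both EV libraries.

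**Figure D1:**
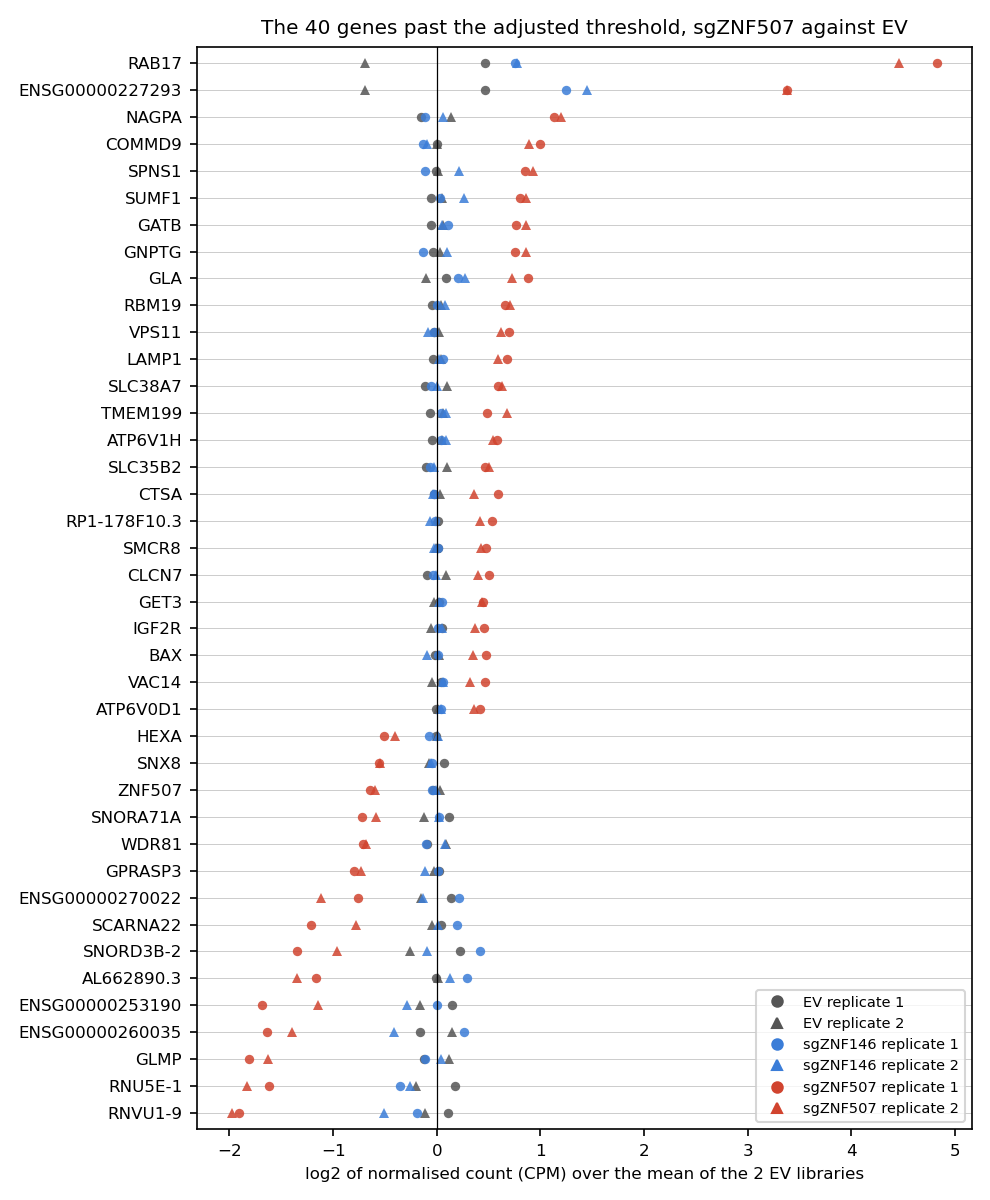
CPM of each library divided by the mean of the 2 EV libraries, on a log2 axis, for the 40 genes past the threshold, with 1 row per gene and 1 point per library ordered by log2 fold change. Colours give the group and shapes the replicate. The sgZNF507 points of each gene sit on 1 side of its EV and sgZNF146 points, from RAB17 at the high end to RNVU1-9 at the low end.

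The number of genes past the threshold depended on single libraries. It fell to 12 without EV replicate 1, to 22 without EV replicate 2 and to 25 without sgZNF507 replicate 1, in fits where the remaining library of that group is assumed to vary like the others. Of the 40 genes, 11 stayed past the threshold whichever library was left out, namely GLMP, RNVU1-9, COMMD9, NAGPA, RAB17, GATB, RBM19, LAMP1, GLA, ZNF507 and WDR81. The direction was kept by all 40 in each of these fits. This follows largely from both sgZNF507 libraries lying beyond both EV libraries in each gene, and is not further support. When the sgZNF146 libraries were left out of the fit, 28 genes were called, and 13 of the 40 lost the call, namely ATP6V0D1, IGF2R, CLCN7, TMEM199, HEXA, CTSA, VAC14, GET3, SLC35B2, BAX, SNORA71A and the lncRNAs RP1-178F10.3 and ENSG00000253190. DESeq2 did not call SNORD3B-2 or the lncRNA ENSG00000227293.

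The 382 tested endolysosomal genes had a median log2 fold change of 0.02, against -0.00 over all genes, with 225 higher and 157 lower. An unadjusted p under 0.05 was reached by 31 of them in the higher direction and 17 in the lower, where 1.44% and 1.96% of all genes did so. Both sgZNF507 libraries lay above both EV libraries in 88 of the 382 and below in 46, where 14% and 15.3% of all genes did so. The share above EV was thus higher than that over all genes, but the 88 include the 18 genes called higher, and the 46 the 4 called lower. The counts above and below EV of smaller groups in later paragraphs compare with these same shares of all genes, 14% and 15.3%. Each sgZNF507 library was also set against the EV mean. The median of the 382 was 0.0012 in replicate 1 and 0.034 in replicate 2, where all genes had -0.0106 and -0.0016.

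The machinery that tags hydrolases and carries them to the lysosome held the highest share of genes that rose, 4 of 14 tested. NAGPA, the uncovering enzyme that removes N-acetylglucosamine to expose mannose 6-phosphate, had 28.8 and 35.2 CPM in EV, 29.6 and 33.4 CPM in sgZNF146, and 69.9 and 73.4 CPM in sgZNF507. GNPTG, the gamma subunit of the phosphotransferase that acts before it, had 31.6 and 33.2 CPM in EV, 29.6 and 34.6 CPM in sgZNF146, and 54.8 and 58.9 CPM in sgZNF507. In both genes the sgZNF507 libraries lay well above all others, with log2 fold changes of 1.16 (SE 0.10, edgeR adjusted p = 2.56e-04) and 0.81 (SE 0.09, edgeR adjusted p = 0.00195). SUMF1, which activates sulfatases in the endoplasmic reticulum, rose from 8.36 and 8.97 CPM to 15.1 and 15.7 CPM (log2 fold change 0.83, SE 0.12, edgeR adjusted p = 0.0181).

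IGF2R, the large mannose 6-phosphate receptor, had 314 and 291 CPM in EV, 305 and 312 CPM in sgZNF146, and 413 and 390 CPM in sgZNF507. This was the smallest of the 4 increases on the log2 scale, at 0.41 (SE 0.06, edgeR adjusted p = 0.0237). The partners of these proteins did not pass the test. GNPTAB, which encodes the catalytic subunits that GNPTG joins, differed by 0.02, the small receptor M6PR by -0.03 and the sulfatase-modifying paralog SUMF2 by 0.01 on the log2 scale, each with an edgeR adjusted p of 1.00. The receptors SORT1 and SORL1 and the adaptors GGA1, GGA2 and GGA3 lay between -0.03 and 0.05. Over the 14 genes the median was 0.05, and their summed share of the library was 0.113% to 0.115% in EV, 0.112% to 0.117% in sgZNF146 and 0.131% to 0.133% in sgZNF507. NAGPA remained past the threshold without any 1 library. GNPTG did not without EV replicate 1 (edgeR adjusted p = 0.0502), SUMF1 without either EV replicate (up to 0.257), and IGF2R without either EV replicate or sgZNF507 replicate 1 (up to 0.475).

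Among 48 tested hydrolases and their activators, 2 rose and 1 fell. GLA, which encodes alpha-galactosidase A, had 85.6 and 74.8 CPM in EV, 92.2 and 97.0 CPM in sgZNF146, and 148 and 132 CPM in sgZNF507. The sgZNF507 libraries were the highest, while the sgZNF146 libraries lay between them and EV. The log2 fold change was 0.80 against EV (SE 0.08, edgeR adjusted p = 5.68e-04) and 0.56 against sgZNF146 (edgeR adjusted p = 0.0112). CTSA, the protective protein cathepsin A that stabilizes beta-galactosidase and neuraminidase, had 73.4 and 76.6 CPM in EV and 113 and 96.4 CPM in sgZNF507 (log2 fold change 0.48, SE 0.08, edgeR adjusted p = 0.0267).

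HEXA, the alpha subunit of beta-hexosaminidase, moved the other way, with 63.4 and 63.8 CPM in EV, 60.3 and 64.0 CPM in sgZNF146, and 44.8 and 48.0 CPM in sgZNF507. Its log2 fold change was -0.45 (SE 0.07, edgeR adjusted p = 0.0267). The 45 members that were not called had a median of 0.03, and 9 had both sgZNF507 libraries above EV and 10 below. Of all genes, 14% lay above and 15.3% below. The partners of CTSA in its complex, GLB1 and NEU1, differed by 0.01 and 0.11. Without either EV replicate, either sgZNF146 replicate or sgZNF507 replicate 1, CTSA and HEXA lost significance (edgeR adjusted p up to 0.443 and 0.274), while GLA kept it in every such fit.

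Of 45 tested proteins and transporters of the lysosomal membrane, 4 rose and 1 fell. LAMP1, an abundant glycoprotein of that membrane and a standard marker of it, had 186 and 196 CPM in EV, 199 and 194 CPM in sgZNF146, and 305 and 287 CPM in sgZNF507. The groups did not overlap, and the log2 fold change was 0.63 (SE 0.06, edgeR adjusted p = 5.68e-04). Its paralog LAMP2 had 53.7 and 47.6 CPM in EV and 49.3 and 55.9 CPM in sgZNF507, which overlap (0.06, edgeR adjusted p = 1.00). CLCN7, a chloride-proton exchanger of the lysosome, had 115 and 130 CPM in EV and 174 and 162 CPM in sgZNF507 (log2 fold change 0.45, SE 0.07, edgeR adjusted p = 0.0237).

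OSTM1, the beta subunit that CLCN7 requires, differed by -0.00 on the log2 scale, and the related CLCN6 by 0.29 (edgeR adjusted p = 0.696, and 0.00764 with the replicate block). SLC38A7, an exporter of glutamine from the lysosome, rose from 41.2 and 47.7 CPM to 66.8 and 68.5 CPM, and SPNS1, an exporter of lysophospholipids, from 6.11 and 6.18 CPM to 11.1 and 11.7 CPM. GLMP, a heavily glycosylated lysosomal membrane protein, was the strongest decrease of the endolysosomal genes. It lay at 34.4 and 40.5 CPM in EV, at 34.6 and 38.5 CPM in sgZNF146 and at 10.7 and 12.2 CPM in sgZNF507. MFSD1, the transporter that GLMP is known to accompany, had 11.5 and 14.1 CPM in EV and 14.4 and 16.5 CPM in sgZNF507 and did not pass (log2 fold change 0.27, edgeR adjusted p = 1.00). The 40 members that were not called had a median of 0.01. Leaving out EV replicate 1 ended the calls of SLC38A7 (edgeR adjusted p = 0.172), CLCN7 (0.389, also lost without sgZNF507 replicate 1) and SPNS1 (0.283, also lost without EV replicate 2 or either sgZNF507 replicate).

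**Figure D2:**
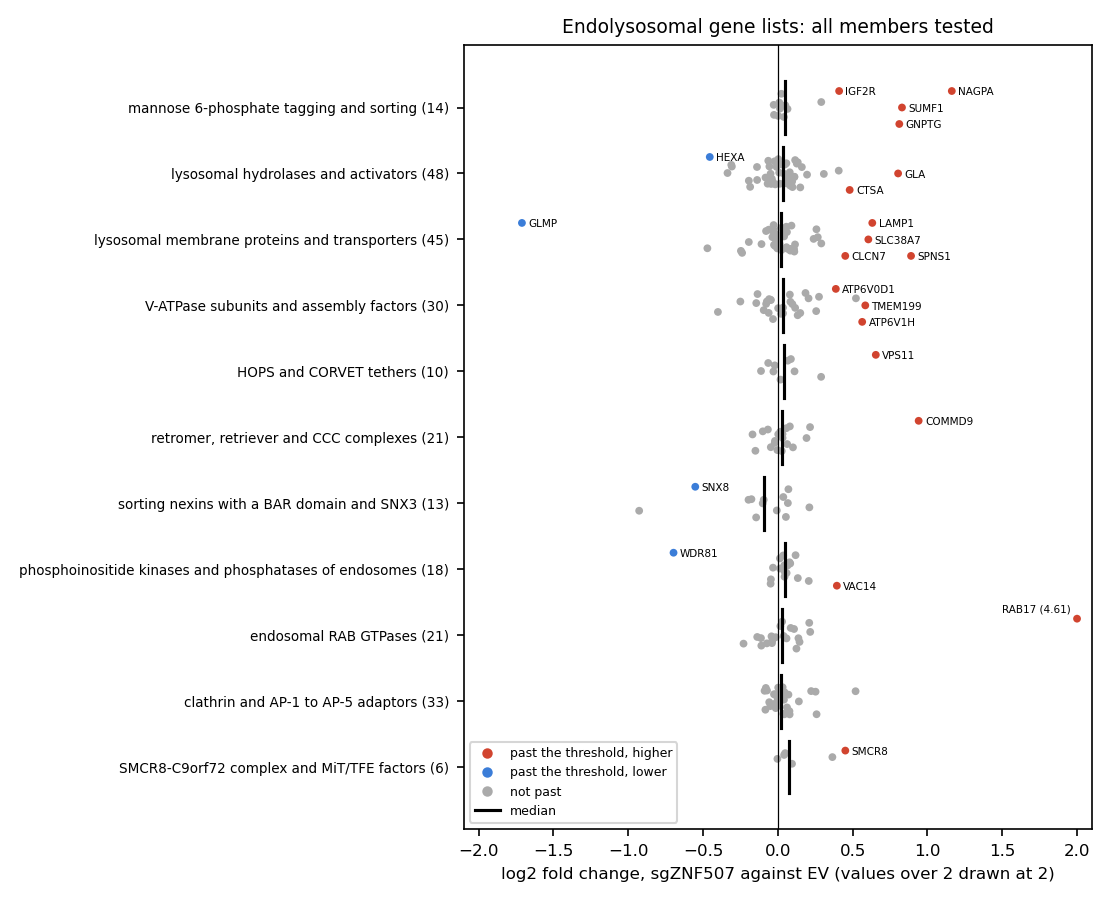
Log2 fold change of sgZNF507 against EV (horizontal axis) for each tested gene of 11 endolysosomal lists (tested genes in parentheses), with 1 row per list, red and blue points for genes past the threshold, grey for the rest, and a vertical bar at the median of each list. RAB17, at 4.61, is drawn at the right edge. The medians stay within 0.1 of 0 while single named members lie far to either side, the mannose 6-phosphate list having 4 to the right and the sorting nexins 1 to the left.

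The V-ATPase pumps protons into the lysosome through a membrane sector (V0) driven by a cytosolic sector (V1) that hydrolyses ATP. Of its 30 tested subunits and assembly factors 3 rose and 0 fell, and 6 reached an unadjusted p under 0.05, all higher. ATP6V1H, a regulatory subunit of V1, had 27.3 and 29.2 CPM in EV, 29.0 and 29.9 CPM in sgZNF146, and 42.3 and 41.2 CPM in sgZNF507. ATP6V0D1, which couples the sectors, had 104 and 106 CPM in EV, 108 and 108 CPM in sgZNF146, and 140 and 135 CPM in sgZNF507. Both lay clear of all 4 other libraries, with log2 fold changes of 0.56 (SE 0.08, edgeR adjusted p = 0.0177) and 0.39 (SE 0.06, edgeR adjusted p = 0.0228). TMEM199, an assembly factor of the pump, rose from 25.3 and 27.5 CPM to 36.8 and 42.2 CPM (0.58, SE 0.10, edgeR adjusted p = 0.0266).

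ATP6V0C, the proteolipid of the rotor ring, lay at 21.1 and 20.5 CPM in EV and 30.2 and 29.6 CPM in sgZNF507 and missed the threshold (log2 fold change 0.52, edgeR adjusted p = 0.0737, and 4.92e-05 with the replicate block). Across the 9 tested V0 genes the median was 0.12, with 5 above EV in both libraries and 0 below. Across the 12 tested V1 genes it was 0.03, with 4 above and 2 below. These counts include the called subunits, and of all genes 14% lay above EV and 15.3% below. The catalytic subunit ATP6V1A differed by 0.02 and its partner ATP6V1B2 by -0.07. CCDC115, with which TMEM199 works, differed by -0.14 (edgeR adjusted p = 1.00). The calls of ATP6V1H, ATP6V0D1 and TMEM199 were lost without EV replicate 1 (edgeR adjusted p = 0.266, 0.302 and 0.389) and without EV replicate 2. Further libraries that decided a call were sgZNF507 replicate 1 for ATP6V1H and ATP6V0D1, sgZNF507 replicate 2 for TMEM199 and either sgZNF146 replicate for the last 2.

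Tethers and recycling complexes each held 1 gene that rose. VPS11, a core subunit shared by HOPS and CORVET, had 38.2 and 39.6 CPM in EV, 38.1 and 36.6 CPM in sgZNF146, and 62.9 and 59.7 CPM in sgZNF507. The log2 fold change was 0.65 (SE 0.08, edgeR adjusted p = 0.0026), and the call was lost without EV replicate 1 (0.0642). The other core subunits were VPS33A at 0.29, VPS18 at 0.09 and VPS16 at 0.07, none past the threshold. The HOPS-specific VPS41 and VPS39 were at 0.11 and -0.03. In 3 of the 8 core and specific subunits, VPS11 included, both sgZNF507 libraries lay above both EV libraries, and in 0 below. Of all genes, 14% lay above and 15.3% below.

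COMMD9 belongs to the CCC complex, which with retriever returns membrane proteins from endosomes to the cell surface. It had 35.1 and 35.0 CPM in EV, 31.9 and 33.0 CPM in sgZNF146, and 70.0 and 64.8 CPM in sgZNF507 with no overlap. The complex contains 10 COMMD proteins in a ring, and those other than COMMD9 ranged from -0.17 (COMMD8) to 0.22 (COMMD1), none past the threshold. Its scaffolds CCDC22 and CCDC93 differed by 0.08 and 0.06, the retriever subunits VPS35L and VPS26C by 0.03 and -0.02, and the retromer subunit VPS35 by 0.00. The median of the 21 genes of these complexes was 0.03.

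Sorting nexins with a BAR domain bend endosomal membranes into tubules, and were listed together with SNX3, which lacks that domain. Of the 13 tested genes of the list 8 were below 0, and the median was -0.09. SNX8 had 56.2 and 50.9 CPM in EV, 51.7 and 51.4 CPM in sgZNF146, and 36.5 and 36.5 CPM in sgZNF507. Its log2 fold change was -0.55 (SE 0.08, edgeR adjusted p = 0.0138), and the call was lost without EV replicate 1 (0.255) or sgZNF507 replicate 1. SNX5 and SNX6, which pair with SNX1 and SNX2 in endosome-to-Golgi transport, were at -0.14 and -0.18, each with both libraries below EV and with edgeR adjusted p-values of 1.00. In 7 of the 13, SNX8 included, both sgZNF507 libraries lay below EV and in 3 above, where 15.3% and 14% of all genes did so.

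The phosphoinositide list held 1 gene in each direction among 18. VAC14 is the scaffold on which the kinase PIKfyve and the phosphatase FIG4 control phosphatidylinositol 3,5-bisphosphate on late endosomes. It had 98.1 and 92.6 CPM in EV, 99.2 and 99.6 CPM in sgZNF146, and 132 and 119 CPM in sgZNF507, a log2 fold change of 0.39 (SE 0.07, edgeR adjusted p = 0.0445). FIG4 stood at 0.21 and PIKFYVE at -0.05, both with edgeR adjusted p-values of 1.00. WDR81, which with WDR91 restrains phosphatidylinositol 3-kinase activity during endosome maturation, fell from 75.6 and 86.1 CPM in EV to 49.3 and 50.5 CPM in sgZNF507, while WDR91 differed by -0.03. VAC14 had the weakest call of the 40 and lost it without any 1 of EV replicate 1, EV replicate 2, sgZNF146 replicate 1, sgZNF146 replicate 2 or sgZNF507 replicate 1 (edgeR adjusted p up to 0.753).

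RAB17, a small GTPase of recycling endosomes best known from polarized epithelia, was close to silent in the other groups. It had 4 and 2 counts in EV, 5 and 5 counts in sgZNF146, and 76 and 74 counts in sgZNF507. This was the largest fold of the called genes. The other 20 tested endosomal RAB genes had no call, and the median of the list was 0.03. SMCR8, which forms a complex with C9orf72 and WDR41 that acts on RAB GTPases and autophagy, had 94.1 and 92.7 CPM in EV, 94.0 and 91.8 CPM in sgZNF146, and 130 and 125 CPM in sgZNF507 (log2 fold change 0.45, SE 0.06, edgeR adjusted p = 0.00961). Its partners C9orf72 and WDR41 stood at 0.09 and 0.04. The SMCR8 call was lost without either EV replicate or sgZNF507 replicate 1 (up to 0.151), and SMCR8 shares its strand with a called lncRNA, RP1-178F10.3, whose reads the counting may not separate.

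The transcription factors of the MiT/TFE family, which turn on lysosomal genes, showed no call. TFEB had 8.56 and 7.45 CPM in EV and 11.9 and 8.77 CPM in sgZNF507, a log2 fold change of 0.36 with an edgeR adjusted p of 1.00. TFE3 differed by 0.05 and MITF by -0.00. RNA levels do not report where these proteins are in the cell, and their part in the changes was not tested.

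Several neighbouring systems had no gene past the threshold. Among them were the 33 clathrin and adaptor genes (median 0.02), the 6 of the WASH complex (0.03), the 30 of ESCRT (0.01), the 15 of BORC and BLOC-1 (-0.03), the 35 of nutrient sensing at the lysosome (-0.01) and the 37 of core autophagy (0.04). Single members came near it, and with the replicate block the adaptor and autophagy lists each held 1 called gene. AP5Z1, a subunit of the late-endosomal adaptor AP-5, had 33.0 and 36.5 CPM in EV and 47.7 and 51.9 CPM in sgZNF507 (edgeR adjusted p = 0.0561, and 7.55e-07 with the replicate block). ATG14, which directs phosphatidylinositol 3-kinase to autophagy, had 24.3 and 27.5 CPM in EV and 36.9 and 36.7 CPM in sgZNF507 (log2 fold change 0.51, edgeR adjusted p = 0.0677, and 1.71e-05 with the replicate block). The remaining AP-5 subunits and their partners SPG11 and ZFYVE26 lay between -0.07 and 0.22. In the nutrient-sensing list, RRAGB (-0.43) and RRAGC (-0.25) had both sgZNF507 libraries below EV. They were the 2 genes of that list with an unadjusted edgeR p under 0.05 and were not called.

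Most promoters of the genes that rose held the E-box. Promoters were taken from RefSeq (GRCh38.p14, 250 bases before to 50 after the annotated start), while the counts rest on GRCh37, and genes were matched by symbol. Of the 25 genes called higher, 21 had an entry, and CACGTG, which reads the same on both strands, was present in 15 (71.4%). It was present in 9.76% of the 11793 tested protein-coding genes with an entry and in 7.43% of all 27305 promoters. The longer form TCACGTGA, which contains the shorter, was present in 8 of the 21 (38.1%), against 1.81% of the tested protein-coding genes and 1.04% of all promoters. Of the 15 genes called lower only 5 had an entry, of which 3 (60.0%) held CACGTG, SNX8 with 2 copies and GPRASP3 and ZNF507 with 1 each. With 10 of the 15 lacking an entry, that share is not compared with the others. The promoters below, from 200 bases before to 25 after the start, are the 3 with the most copies (LAMP1, BAX and IGF2R) and those of a hydrolase (CTSA) and both enzymes of mannose 6-phosphate tagging (GNPTG and NAGPA). The capitals mark CACGTG.

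LAMP1, chr13:113297039-113297263, plus strand: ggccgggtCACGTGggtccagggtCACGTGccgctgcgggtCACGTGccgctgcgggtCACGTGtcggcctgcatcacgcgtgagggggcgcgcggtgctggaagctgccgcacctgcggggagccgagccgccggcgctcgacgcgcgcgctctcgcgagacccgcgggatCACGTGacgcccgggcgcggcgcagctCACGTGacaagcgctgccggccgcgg
IGF2R, chr6:159968882-159969106, plus strand: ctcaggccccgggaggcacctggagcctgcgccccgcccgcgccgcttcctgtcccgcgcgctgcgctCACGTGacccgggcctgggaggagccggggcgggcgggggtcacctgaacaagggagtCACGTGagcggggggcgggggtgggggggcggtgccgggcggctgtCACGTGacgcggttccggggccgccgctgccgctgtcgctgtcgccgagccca
BAX, chr19:48954675-48954899, plus strand: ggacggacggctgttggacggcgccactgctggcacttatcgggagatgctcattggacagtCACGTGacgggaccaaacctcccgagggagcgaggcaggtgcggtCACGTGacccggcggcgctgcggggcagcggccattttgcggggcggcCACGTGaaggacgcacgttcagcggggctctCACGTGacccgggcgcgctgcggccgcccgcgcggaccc
CTSA, chr20:45891135-45891359, plus strand: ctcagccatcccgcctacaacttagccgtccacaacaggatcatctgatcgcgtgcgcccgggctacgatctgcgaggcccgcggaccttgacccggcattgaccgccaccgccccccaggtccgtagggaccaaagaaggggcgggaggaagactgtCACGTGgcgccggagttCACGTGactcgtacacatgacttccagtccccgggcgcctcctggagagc
GNPTG, chr16:1351731-1351955, plus strand: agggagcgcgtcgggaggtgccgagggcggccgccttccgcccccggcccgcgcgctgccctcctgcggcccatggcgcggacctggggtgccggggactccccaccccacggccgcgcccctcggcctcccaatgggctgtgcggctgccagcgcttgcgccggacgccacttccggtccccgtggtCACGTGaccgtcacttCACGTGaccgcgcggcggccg
NAGPA, chr16:5033911-5034135, minus strand: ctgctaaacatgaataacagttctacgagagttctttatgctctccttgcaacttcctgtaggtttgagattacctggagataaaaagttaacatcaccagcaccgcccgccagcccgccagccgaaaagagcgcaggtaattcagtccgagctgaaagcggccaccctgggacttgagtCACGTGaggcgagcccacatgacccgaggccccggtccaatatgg

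Of these, LAMP1 held 6 copies, BAX 4, IGF2R 3, CTSA and GNPTG 2 each, and NAGPA 1, whose first base lay at -20 relative to the start. Single copies were also present in COMMD9 (at -36), RBM19 (-16), SUMF1 (-13) and ATP6V0D1 (-59). The motif was absent from the windows of GLA, RAB17, GATB, SMCR8, SLC35B2 and GET3, although these genes rose as well, and from those of GLMP and WDR81, which fell. A match of letters is a description of the sequence and does not show that a factor binds there.

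Endolysosomal genes with and without the motif were also set side by side, a division made after the shares above were seen and described without a test. Of the 309 tested endolysosomal genes with a promoter entry, 64 held CACGTG and 245 did not. Among the 64, 13 were called higher and 1 lower, and the median log2 fold change was 0.07. Both sgZNF507 libraries lay below EV in 7, the 1 called lower included. They lay above EV in 26 (40.6%), which include the 13 called higher. The promoters of those 13 were part of the shares that led to the division. Among the 245 without CACGTG, 3 were called higher and 2 lower, and the median was 0.02. Of these, 45 (18.4%, the 3 included) lay above EV and 27 (the 2 included) below. Outside these lists, 1208 tested genes held CACGTG, of which 2 were called higher and 2 lower, and the median was -0.01. Of these, 162 (13.4%) lay above EV and 193 below. The 11641 without it had 3 called higher and 0 lower, 1562 (13.4%) above EV, 1699 below and a median of -0.00. Of the 290 endolysosomal genes with an entry that were not called, 50 (17.2%) held CACGTG and 22 (7.59%) held TCACGTGA.

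**Figure D3:**
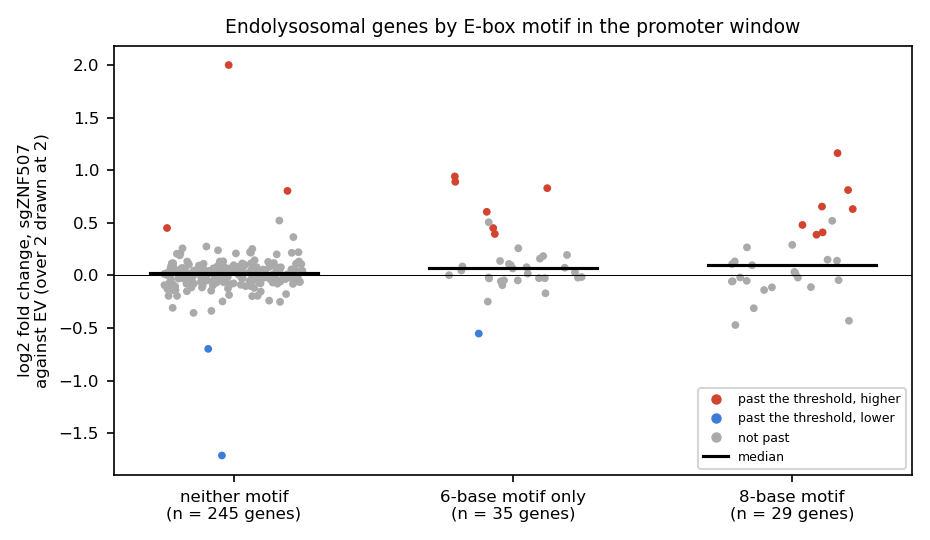
Log2 fold change of sgZNF507 against EV (vertical axis) for tested endolysosomal genes, in 3 columns by the E-box in the promoter (none, the 6-base motif only, the 8-base motif), with red and blue points for genes past the threshold and a bar at the median. Of the 16 red points 13 are in the columns with the motif and 3 in the column without it, and RAB17 is drawn at the top edge.

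Outside the endolysosomal system, 5 listed genes rose, each the only called member of its group. GATB is a subunit of the GatCAB amidotransferase that makes glutaminyl-tRNA in mitochondria. It had 52.0 and 56.3 CPM in EV, 58.2 and 56.0 CPM in sgZNF146, and 92.0 and 98.5 CPM in sgZNF507 (log2 fold change 0.82, SE 0.07, edgeR adjusted p = 2.82e-04). The other subunits of the enzyme, QRSL1 and GATC, differed by -0.13 and -0.01, and the median of 20 genes of mitochondrial tRNA charging was 0.02. RBM19, an RNA-binding protein of pre-rRNA processing, had 124 and 132 CPM in EV, 128 and 136 CPM in sgZNF146, and 202 and 209 CPM in sgZNF507 (log2 fold change 0.68, SE 0.06, edgeR adjusted p = 3.07e-04). The 42 other tested genes of the small-subunit processome ran from -0.20 to 0.14 with a median of -0.04, so RBM19 stood apart from its group, and both calls held without any 1 library.

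The 3 remaining genes had smaller differences. GET3, the ATPase that delivers tail-anchored proteins to the endoplasmic reticulum, had 47.6 and 46.1 CPM in EV, 48.6 and 47.5 CPM in sgZNF146, and 63.8 and 63.4 CPM in sgZNF507 (log2 fold change 0.44, SE 0.07, edgeR adjusted p = 0.0266). The other 15 tested genes of the GET pathway and the EMC insertase had no call, UBL4A coming next at 0.25, which was called with the replicate block (edgeR adjusted p = 0.0244). SLC35B2, which carries the sulfate donor PAPS into the Golgi, had 64.3 and 74.0 CPM in EV and 95.7 and 98.3 CPM in sgZNF507 (0.49, SE 0.08, edgeR adjusted p = 0.0227). The second PAPS transporter, SLC35B3, stood at 0.06, and the enzymes that build heparan sulfate had no call, with a median of 0.03 over the 24 genes of the list.

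BAX, the pore-forming protein of mitochondrial apoptosis and a p53 target, had 88.3 and 90.4 CPM in EV, 90.0 and 83.6 CPM in sgZNF146, and 124 and 114 CPM in sgZNF507 (log2 fold change 0.41, SE 0.07, edgeR adjusted p = 0.0367). Its relative BAK1 stood at 0.06, and no other of the 25 tested p53 targets or 14 BCL2 family genes was called, with medians of 0.04 and 0.05. The p53 targets CDKN1A and MDM2 are on that list of 25 and were not called. The call of GET3 was lost without any 1 of the 6 libraries (edgeR adjusted p up to 0.376), that of SLC35B2 without EV replicate 1 or either sgZNF507 replicate (up to 0.321), and that of BAX without either EV replicate, either sgZNF146 replicate or sgZNF507 replicate 1 (up to 0.468).

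Apart from ZNF507 and the endolysosomal genes, 1 protein-coding gene fell. GPRASP3 (also BHLHB9), of a family of proteins with armadillo-like repeats on the X chromosome, had 31.3 and 30.2 CPM in EV, 31.1 and 28.4 CPM in sgZNF146, and 17.7 and 18.5 CPM in sgZNF507 (log2 fold change -0.76, SE 0.09, edgeR adjusted p = 0.00349). Its neighbour GPRASP2, which acts on receptors sorted to the lysosome, lay at 59.6 and 64.8 CPM in EV and 47.2 and 49.0 CPM in sgZNF507 and did not pass (edgeR adjusted p = 0.144, and 1.86e-04 with the replicate block). The 9 tested genes of the family had a median of -0.15, with 5 below EV in both libraries, GPRASP3 included, and 0 above. Of all genes, 15.3% lay below and 14% above. GPRASP3 overlaps the readthrough gene ARMCX5-GPRASP2 on the same strand, and its call was lost without EV replicate 1 (0.0642).

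Transcripts of the mitochondrial genome were lower together. Both sgZNF507 libraries lay below both EV libraries in 13 of 13 mRNAs, 13 reached an unadjusted p under 0.05, and 0 passed after adjustment. With the replicate block 11 of the 13 passed, all lower. As a share of all counts they made up 2.61% and 2.84% of the EV libraries, 2.70% and 2.52% of the sgZNF146 libraries, and 2.19% and 2.28% of the sgZNF507 libraries. The differences ran from -0.62 for MT-ND6, the one mRNA read from the light strand, to -0.19 for MT-CO3. MT-ND6 had 630 and 768 CPM in EV, 734 and 645 CPM in sgZNF146, and 373 and 536 CPM in sgZNF507 (edgeR adjusted p = 0.238, and 1.36e-07 with the replicate block). MT-ND4L came nearest the threshold, at 495 and 482 CPM in EV, 490 and 473 CPM in sgZNF146, and 398 and 331 CPM in sgZNF507 (log2 fold change -0.42, edgeR adjusted p = 0.0796, and 2.07e-06 with the replicate block).

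Values of mitochondrial rRNA moved as well, and differently within the group. MT-RNR2, the large rRNA, had 1154 and 1206 CPM in EV, 128 and 158 CPM in sgZNF146, and 709 and 50.3 CPM in sgZNF507, and the authors removed reads of ribosomal RNA before counting. The mRNA shares of the same libraries are given above, and the part of rRNA removal in the mRNA values was not tested. The 20 tested mitochondrial tRNA and rRNA genes had a median of -0.35, with 10 below EV and 1 above, and 0 were called, or 5 with the replicate block, MT-RNR2 among them (edgeR adjusted p = 2.19e-04). Nuclear genes of the same organelle did not share the shift, with medians of -0.01 over 37 genes of complex I, -0.05 over 25 of complexes II to IV, -0.02 over 16 of the ATP synthase, -0.02 over 76 of the mitochondrial ribosome and -0.06 over 30 of mitochondrial RNA synthesis and processing, and 0 called in each.

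Some small nuclear and nucleolar RNA genes fell. Of 21 tested snRNA genes of the spliceosome 20 were lower, 2 of them called (3 with the replicate block), and the median was -0.49. Their summed share was 0.00932% and 0.00727% of the EV libraries, 0.00803% and 0.00720% of the sgZNF146 libraries, and 0.00533% and 0.00437% of the sgZNF507 libraries. RNVU1-9, a variant of the U1 snRNA, had 22.2 and 19.1 CPM in EV, 18.0 and 14.5 CPM in sgZNF146, and 5.51 and 5.25 CPM in sgZNF507. RNU5E-1, a U5 gene, had 5.42 and 4.16 CPM in EV and 1.56 and 1.35 CPM in sgZNF507. Near-identical copies share reads in both families, so the change cannot be assigned to 1 copy. The 19 other genes had a median of -0.47, with 9 below EV in both libraries and 0 above. The call of RNU5E-1 was lost without EV replicate 1 (edgeR adjusted p = 0.0642).

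The guides of rRNA processing and modification moved less evenly. SNORD3B-2, a copy of the U3 snoRNA needed to cleave pre-rRNA, had 479 and 344 CPM in EV, 551 and 386 CPM in sgZNF146, and 162 and 211 CPM in sgZNF507 (log2 fold change -1.14, SE 0.17, edgeR adjusted p = 0.0181). It was the 1 called gene of 53 tested box C/D genes, whose median was -0.08, with 31 lower and 22 higher (2 called with the replicate block). SNORA71A, from an intron of SNHG17, had 44.9 and 37.9 CPM in EV, 42.0 and 42.1 CPM in sgZNF146, and 25.1 and 27.6 CPM in sgZNF507 (-0.65, SE 0.10, edgeR adjusted p = 0.0181). SCARNA22, a Cajal body RNA from an intron of NSD2, had 13.8 and 13.0 CPM in EV, 15.3 and 13.5 CPM in sgZNF146, and 5.77 and 7.80 CPM in sgZNF507 (-0.97, SE 0.15, edgeR adjusted p = 0.0206). Over 77 tested box H/ACA and scaRNA genes the median was -0.17, with 53 lower, 24 higher and 22 below EV in both libraries, and 2 were called (6 with the replicate block).

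AL662890.3, annotated as a microRNA gene, was the last of the small RNA genes that fell, with 6.55 and 6.66 CPM in EV and 2.95 and 2.59 CPM in sgZNF507 (log2 fold change -1.26, SE 0.16, edgeR adjusted p = 0.00618). Replicates within a group also differed for these RNAs, the summed share of the box C/D genes being 0.0694% and 0.0508% in EV, 0.0765% and 0.0592% in sgZNF146, and 0.0319% and 0.0370% in sgZNF507. The 26 tested host genes of snoRNAs had a median of -0.03 and 0 calls. The calls of SNORA71A, SNORD3B-2 and SCARNA22 were lost without EV replicate 1 (edgeR adjusted p = 0.266, 0.234 and 0.234) and without sgZNF507 replicate 1, that of SCARNA22 also without EV replicate 2, and that of AL662890.3 without either EV replicate (up to 0.0642).

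**Figure D4:**
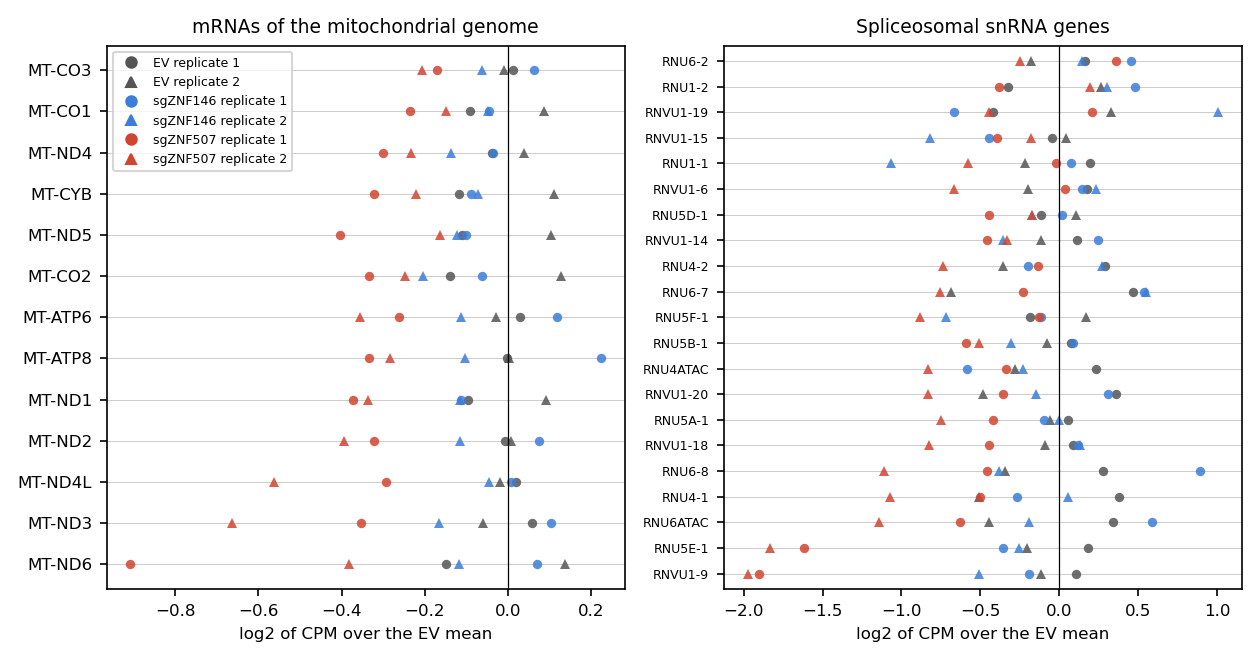
CPM of each library divided by the mean of the 2 EV libraries, on a log2 axis, for the 13 mitochondrial mRNAs and the 21 tested spliceosomal snRNA genes, with 1 point per library coloured by group. The sgZNF507 points of the mRNAs lie below the EV points in every row, and those of the snRNA genes do so in 11 of 21.

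Proteins that make or use these RNAs showed smaller differences. The 77 tested cytosolic ribosomal protein genes had a median of -0.05, with 26 below EV in both libraries and 1 above, and 0 called. RPL37 had 385 and 401 CPM in EV and 338 and 300 CPM in sgZNF507, a log2 fold change of -0.30, and was 1 of the 2 called with the replicate block (edgeR adjusted p = 0.00174). Their summed share was 3.43% and 3.39% in EV, 3.57% and 3.32% in sgZNF146, and 3.44% and 3.18% in sgZNF507, so that sgZNF507 replicate 1 did not lie below EV. Without sgZNF507 replicate 2 their median was 0.02, the opposite sign. Core spliceosome proteins (37 genes) had a median of -0.04, the SMN complex and methylosome (14 genes) -0.01 and the RNA exosome (14 genes) -0.06, each with 0 calls.

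PRMT5, the arginine methyltransferase of the methylosome, had 190 and 191 CPM in EV, 183 and 188 CPM in sgZNF146, and 184 and 190 CPM in sgZNF507. Its obligate partner WDR77 had 114 and 103 CPM in EV and 110 and 115 CPM in sgZNF507. Neither differed beyond the spread between replicates, with log2 fold changes of -0.03 and 0.05 (edgeR adjusted p = 1.00 each). The 26 tested genes of LINE-1 silencing, which include HUSH, KAP1, SETDB1 and the DNA methyltransferases, had a median of 0.02 and 0 calls. Polycomb, SWI/SNF, NuRD, Mediator, and cohesin with condensin likewise had 0 calls, and the medians of the 8 chromatin lists lay between -0.02 and 0.02.

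Cell state was close to EV by the same measure. Genes of S phase (30 tested) and of G2 and M phase (30 tested) had medians of 0.02 and -0.01, the unfolded protein response (24) 0.01, the ATF4 response (29) -0.03, NRF2 targets (15) 0.01, interferon-stimulated genes (34) 0.08 and cholesterol synthesis (24) 0.03, with 0 calls in each. Hypoxia targets had the highest median of these lists, 0.09 over 18 genes, with 10 above EV in both libraries and 2 below. DDIT4, an inhibitor of mTORC1 on that list, had 37.2 and 30.0 CPM in EV and 46.0 and 38.9 CPM in sgZNF507 (log2 fold change 0.34, edgeR adjusted p = 1.00, and 0.00406 with the replicate block, where it was also the 1 call of the ATF4 list). HOX genes were higher in 30 of 38 with a median of 0.08, and their median in sgZNF507 against sgZNF146 was 0.02. Set against the EV mean, the HOX median was 0.17 in sgZNF507 replicate 1 and -0.02 in replicate 2. In 9 HOX genes both sgZNF507 libraries lay above both EV libraries, and in 1 below. For the HOX and hypoxia counts, the shares over all genes were 14% above and 15.3% below. Of 75 lists, 54 held no called gene (43 with the replicate block), and the medians of 52 of the 54 lay within 0.1 of 0.

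**Figure D5:**
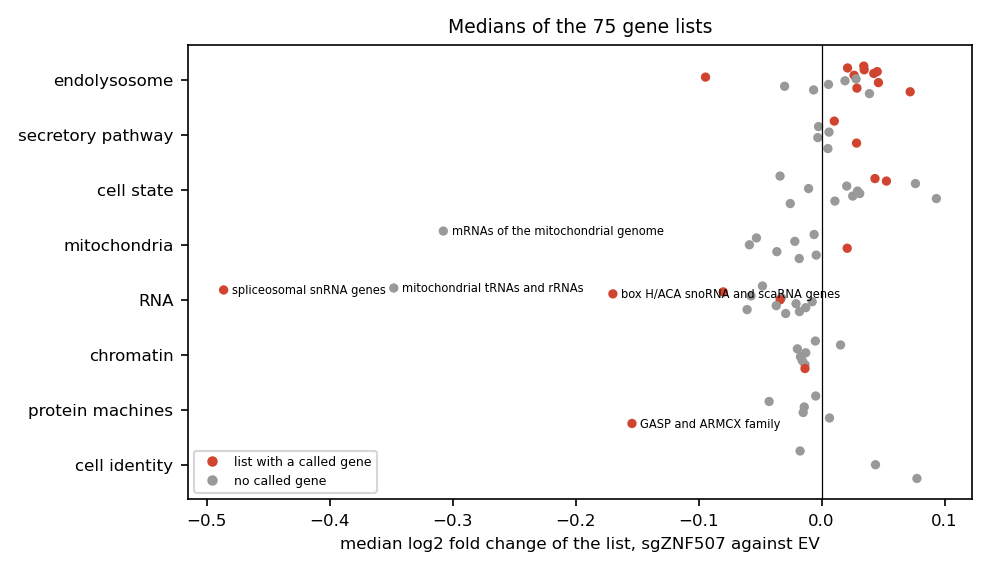
Median log2 fold change of sgZNF507 against EV for each of the 75 gene lists, with 1 point per list, rows for themes, and red where the list holds a called gene. The lists of snRNA genes, mitochondrial tRNAs and rRNAs, and mitochondrial mRNAs lie far to the left at -0.49, -0.35 and -0.31, box H/ACA and scaRNA genes and the GASP and ARMCX family at -0.17 and -0.15, and the others stay within 0.1 of 0.

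The called genes were spread over the genome with 1 concentration. Chromosome 16 held 7 of the 25 genes called higher among its 1029 tested genes, namely NAGPA, GNPTG, CLCN7, SPNS1, SLC38A7, ATP6V0D1 and VAC14, all of them endolysosomal. The median of the chromosome was 0.01, so it was not shifted as a whole. The 147 other tested genes within 5 Mb of ZNF507 on chromosome 19 had a median of -0.06 against EV and -0.02 against sgZNF146. Of them 12 lay above and 32 below both EV libraries, where 14% and 15.3% of all genes did so, and 0 were called. Of the 25 genes called higher 17 were among the 5503 tested genes with the highest mean level, as were 5 of the 15 called lower.

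The sgZNF146 libraries give a second reference, although EV and sgZNF146 are not independent tests of sgZNF507 because the same 2 sgZNF507 libraries enter both. In sgZNF507 against sgZNF146, 38 genes (0.173% of those tested) had an edgeR adjusted p under 0.05, and 196 (100 higher and 96 lower) with the replicate block. All 40 genes called against EV had the same sign there, and 33 were called (20 higher and 13 lower). SUMF1 was among those that were not, at 0.68 (edgeR adjusted p = 0.0624), as was HEXA at -0.42 (edgeR adjusted p = 0.0501). A further 5 genes were called only against sgZNF146, which does not show that they differ from the others, and among them was TRAPPC2L, a subunit of the TRAPP tethers (0.48, edgeR adjusted p = 0.0177, against 0.34 and 0.167 relative to EV, where the replicate block gave 4.28e-04). Mitochondrial mRNAs had a median of -0.24 against sgZNF146 and snRNA genes of -0.49.

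Overlapping annotation limits some values. Of the 40 called genes 11 overlap another gene on the same strand, among them IGF2R, SPNS1, TMEM199, HEXA, SLC35B2, GPRASP3 and SMCR8, and their counts may include reads of that gene. A further overlap on the opposite strand exists for 17 (counting also some of the 11), among them NAGPA with ALG1, GNPTG with UNKL, GLA with RPL36A and CTSA with PLTP. The kit keeps the strand, but whether the counting used it is not given in the sources used here.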

How the data were processed

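RNA was sequenced (paired-end, 50 bases, KAPA strand-specific kit with ribosome depletion) from 6 HEK293 libraries in 3 groups of 2, grouped by the treatment in the labels. The authors clipped reads with the Fastx Toolkit, removed reads of ribosomal RNA with Bowtie, aligned the rest to hg19 with TopHat2 as a first-strand library with an Ensembl annotation, and counted them per Ensembl gene with featureCounts. The strand option of featureCounts is not given in the sources used here. The deposited values are raw counts per gene, without molecular identifiers. Symbols and positions came from GENCODE 44 on GRCh37, which matched 96.1% of identifiers.

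Genes were filtered with filterByExpr, scaled by TMM and tested across all genes with edgeR 4.0.16 (R 4.3.3) by the quasi-likelihood test, all 6 libraries in 1 fit, with Benjamini-Hochberg adjustment over 22010 genes and a threshold of 0.05. CPM values use TMM-scaled library sizes, and a gene is called above or below where both sgZNF507 libraries lie outside both EV libraries on 1 side. The 75 gene lists, the named genes and the promoter motif were chosen with earlier results of these data known, so lists are described by counts and medians without a test. Named were ZNF507, PRMT5 and WDR77, all called genes, other members of their complexes and, in lists without a call, members with the smallest p. M6PR, GNPTAB, MT-CO3, RPL37 and other members that illustrate a group, and those of promoters, were picked after their values were seen. The scripts were tested on simulated data. The labels give replicate numbers without saying that they mark a shared culture. Deviations of replicate 1 from the group mean correlated across genes with r = 0.176 between EV and sgZNF507, 0.138 between EV and sgZNF146 and 0.145 between sgZNF146 and sgZNF507. On these correlations, which are low, the numbers were taken to pair the libraries. The main fit was nevertheless made without a term for them, and values with the replicate number as a block are given where they change a call. Alternatives were DESeq2 1.42.0, other filters and scaling, a replicate block, the EV and sgZNF507 libraries alone and leaving out each library.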

Additional observations from a re-analysis of the deposited data

How the results depend on the processing

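The count of called genes, 40 in sgZNF507 against EV, was 41 with the size factors of DESeq2, 37 with at least 10 counts in every library, 49 and 54 with DESeq2 on 6 and on 4 libraries, and 28 with edgeR on the 4 libraries of EV and sgZNF507. Without a filter on low counts it was 101 (42 higher and 59 lower). DESeq2 on 4 libraries called 25 genes lower, and edgeR on these libraries called 15 higher. Leaving out 1 library at a time gave 12 to 44 genes, 7 to 24 higher and 5 to 20 lower, and among endolysosomal genes 7 to 21, 5 to 17 higher and 2 to 4 lower. The low end of each range is without EV replicate 1. Of the 40 genes, 29 lost the call without EV replicate 1, 19 without EV replicate 2, 20 without sgZNF507 replicate 1, 7 without sgZNF507 replicate 2 and 8 without either sgZNF146 replicate. All 40 were tested and kept their direction in each alternative, except that the filter of at least 10 counts left 38 of them. The kept direction follows largely from both sgZNF507 libraries lying beyond both EV libraries in each gene. The call was kept by 10 in all 13 (RAB17 in the 12 in which it was tested). Against sgZNF146, DESeq2 called 56 genes, 23 of them lower.

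With the replicate block 121 genes were called (54 higher and 67 lower), so that none of the 40 lost the call, 7 endolysosomal genes were lower, and against sgZNF146 196 genes were called (100 higher and 96 lower).

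The 13 mitochondrial mRNAs were lower in each alternative, with a median of -0.38 to -0.26 when a library was left out. Their direction follows largely from both sgZNF507 libraries lying below both EV libraries in each. Of the 13, 12 were called without a filter, 11 with the replicate block, 3 and 6 with DESeq2 on 6 and on 4 libraries, 1 without sgZNF146 replicate 2, 2 without sgZNF507 replicate 1 and 1 without sgZNF507 replicate 2. The snRNA median ran from -0.74 to -0.32 and that of ribosomal protein genes from -0.10 to 0.02 over the same fits. With CANNTG in place of CACGTG, 95.2% of the promoters of genes called higher held the motif (100% of the 5 of genes called lower), against 61.4% of tested genes with an entry. The causes of these changes were not tested. Groups of 2 libraries limit the precision of each value, and intervals were not given.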

Other observations

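Genes outside the lists that are named here, after their values were seen, missed the threshold and passed it with the replicate block (edgeR adjusted p up to 5.19e-04). GPATCH3, a G-patch protein, had 27.7 and 26.2 CPM in EV, 25.7 and 25.2 CPM in sgZNF146, and 40.8 and 35.7 CPM in sgZNF507 (log2 fold change 0.51, edgeR adjusted p = 0.0638). TRMT1, a tRNA methyltransferase, had 92.7 and 102 CPM in EV and 120 and 128 CPM in sgZNF507 (0.34, edgeR adjusted p = 0.170). GRN, which encodes the lysosomal protein progranulin, lay lower, with 238 and 257 CPM in EV, 245 and 238 CPM in sgZNF146, and 209 and 192 CPM in sgZNF507 (-0.30, edgeR adjusted p = 0.212).

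Small RNA genes outside the lists were also among them. RNY1, a Y RNA, had 22.4 and 13.7 CPM in EV, 18.9 and 13.5 CPM in sgZNF146, and 9.63 and 7.22 CPM in sgZNF507 (-1.11, edgeR adjusted p = 0.142). BCYRN1, an Alu-derived RNA of brain cytoplasm, had 252 and 272 CPM in EV, 289 and 264 CPM in sgZNF146, and 196 and 215 CPM in sgZNF507, and it passed against sgZNF146 (-0.43, edgeR adjusted p = 0.0398) but not against EV (-0.35, edgeR adjusted p = 0.144). Both sgZNF507 libraries were the lowest of the 6 in each of these small RNA genes.

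Chromosome 14 had the lowest median of the autosomes, -0.05 over 680 tested genes, with 149 below both EV libraries and 50 above, and chromosome 22 the highest, 0.04 over 538 genes, with 128 above and 56 below. Neither held more than 1 called gene, and whether these shifts differ from those between replicates was not tested.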
